A study of Homo sapiens with 6 samples.

Results

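The genes described here are 29 members of base excision repair, single-strand break repair and ribonucleotide excision, chosen by gene symbol from the 24305 symbols of the deposited table. The list was made with earlier results of these data known, and all 29 symbols were found. They comprise 11 DNA glycosylases, 2 AP endonucleases, 5 end-processing genes, 5 genes for gap filling, flap removal and ligation, 3 scaffold or chromatin genes and the 3 subunits of ribonuclease H2. RNA was measured in DU 145, an established human prostate cancer cell line, in 3 libraries after 48 h with talazoparib, which inhibits PARP1 and PARP2, and in 3 control libraries of the same duration whose label reads "DMOS". The sequenced dose is not given in these labels, and the submitters' design text takes this line as deficient in homologous recombination repair. Both groups come from 1 line. Nothing in the labels ties replicates to separate cultures, so the p-values reflect only library-to-library spread, possibly a technical one.

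Base excision repair starts when a glycosylase cuts a damaged base from its sugar. An AP endonuclease then nicks the strand at the empty site, a polymerase fills the gap, and a ligase seals it, with XRCC1 holding several of these enzymes together. The nick and other single-strand breaks are sensed by PARP1 and PARP2, whose ADP-ribose chains recruit XRCC1 and chromatin remodellers, so PARP inhibitors act on the same intermediates that these genes make and close.

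Total counts were 39123997 to 39585727 per library. The labelled epithelial identity was matched by the keratins KRT8 (534 to 652 CPM over the 6 libraries; CPM is the count relative to library size in the usual unit, scaled by TMM for tested genes) and KRT18 (465 to 627 CPM), with EPCAM at 4.23 to 6.54 CPM and CDH1 at 0.61 to 1.66 CPM. These 4 did not pass the test between groups, while the keratin KRT19 rose from 39.3 to 46.9 CPM in controls to 85.6 to 100.5 CPM with talazoparib (log2 fold change 1.13 ± 0.10, SE; adjusted p = 9.02e-06 by the edgeR test described below). TMPRSS2, a prostate luminal marker, had 1 count over the 6 libraries. PTPRC and COL1A2, markers of blood cells and fibroblasts, had 0 counts in every library, where 3 counts would be 0.0758 to 0.0767 CPM. The other markers of such cells were present at low levels: the fibroblast collagen COL1A1 had 82 to 117 counts per library (2.08 to 3.05 CPM), with overlapping groups, and the endothelial PECAM1 had 2 to 5 counts in controls and 6 to 18 with talazoparib, too few to test. Their part in the results was not tested. Control replicate 1 stood apart from the other controls. Among all 8200 genes past the test it was the control nearest to the talazoparib mean for 79.3%, and among the 19 repair genes past the test for 18. In bulk RNA, fewer cells with a transcript and less transcript per cell cannot be told apart.

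All 29 genes passed the filter on low counts. Per length, as FPKM in the authors' deposited values, the control level ran from 0.333 ± 0.152 for APLF to 175 ± 9.41 for the main AP endonuclease APEX1 (SD, n = 3 libraries). The flap endonuclease FEN1 followed at 110 ± 1.47 FPKM, the uracil glycosylase UNG at 89.9 ± 5.92 and the ribonuclease H2 catalytic subunit RNASEH2A at 65.6 ± 5.33. These 4 differed from each neighbour in that order by more than their SDs. Next came HMGB1 at 40.5 ± 1.87 FPKM, NTHL1 at 36.2 ± 2.35, MPG at 33.9 ± 3.51 and CHD1L at 31.6 ± 1.54; MPG overlapped within SDs with both NTHL1 and CHD1L, which did not overlap with each other. The lowest ranks were held by LIG3 (6.15 ± 0.292 FPKM), OGG1 (5.99 ± 0.227), RNASEH2B (5.68 ± 0.579), MUTYH (4.52 ± 0.150), NEIL1 (0.653 ± 0.0845) and APLF, with LIG3, OGG1 and RNASEH2B overlapping within their SDs. RNASEH2B thus stood far below its partner subunits RNASEH2A and RNASEH2C (28.7 ± 2.02 FPKM) on this scale.

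**Figure D1:**
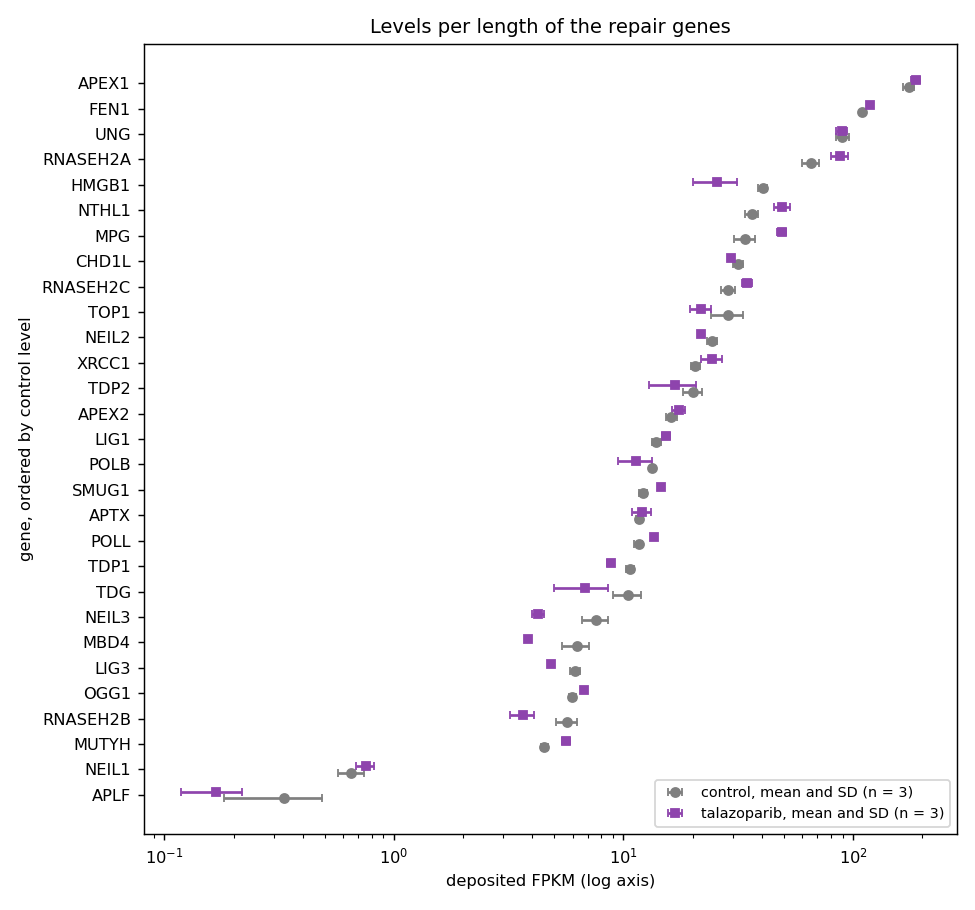
Deposited FPKM of the 29 repair genes on a log axis, ordered by control level, with mean and SD of 3 control libraries (grey circles) and 3 talazoparib libraries (purple squares). APEX1, FEN1, UNG and RNASEH2A are at the top, and NEIL1 and APLF lie below 1 FPKM in both groups.

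With talazoparib the repair genes changed in both directions and by modest amounts. By edgeR's quasi-likelihood test with an adjusted p under 0.05, 11 of the 29 were higher, 8 were lower and 10 did not pass. The same test called 56.7% of all 14452 genes tested, 26.8% higher and 29.9% lower, and for the repair genes the share called was 65.5%, a share not far above that background. Their median log2 fold change was 0.12, against 0.002 over all genes tested. None of the 29 reached a 2-fold change, against 13.2% of all genes tested, and 5 reached 1.5-fold, against 33.1%. The groups of libraries did not overlap in CPM for 21 of the 29, against 64.4% of all genes tested (31.6% with talazoparib higher and 32.8% with it lower). The largest rise was in the alkyl-purine glycosylase MPG (log2 fold change 0.60 ± 0.10, SE) and the largest fall, apart from the sparsely counted APLF, in the glycosylase NEIL3 (-0.76 ± 0.12).

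Across all genes of these libraries, fold changes followed the GC content and length of the mRNA. The results below are therefore set beside a second log2 fold change, called trend-removed, from the same edgeR test after each library's trend over GC content and length was taken out as an offset. That fit called 44.2% of the 13718 genes with both properties, 22.0% higher and 22.2% lower. It called 9 of the 29 repair genes, 6 higher and 3 lower. Only RNASEH2A (higher) and NEIL3 (lower) passed in the same direction in both fits.

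**Figure D2:**
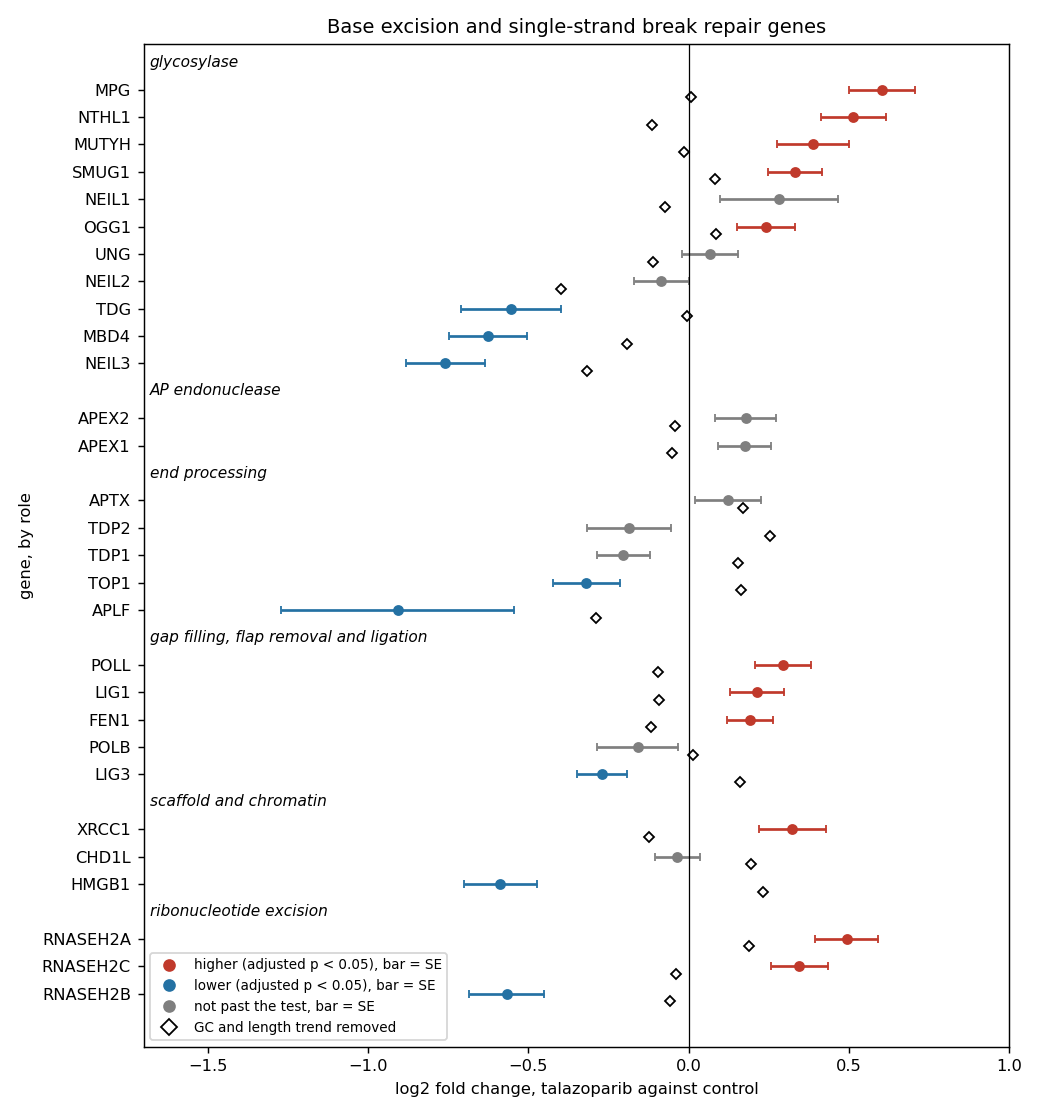
Log2 fold change of each repair gene, talazoparib against control, grouped by role; coloured circles with SE bars are from the edgeR test (red higher, blue lower, grey not past the test), and open diamonds are the trend-removed values. The circles run from -0.91 (APLF) to 0.60 (MPG), and the diamonds lie between -0.40 (NEIL2) and 0.25 (TDP2).

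Among the 11 glycosylases, 5 were higher (MPG, NTHL1, MUTYH, SMUG1, OGG1), 3 were lower (NEIL3, MBD4, TDG) and 3 did not pass (UNG, NEIL1, NEIL2). The promoter windows of NEIL3, MPG, MBD4 and NTHL1 are shown because these genes had the smallest adjusted p among members whose window held a searched motif, and they cover both directions. Each window runs from 250 bases before to 50 bases after the RefSeq start (GRCh38.p14): NEIL3 at chr4:177309624-177309923 on the plus strand, MPG at chr16:77975-78274 on the plus strand, MBD4 at chr3:129439899-129440198 on the minus strand and NTHL1 at chr16:2047785-2048084 on the minus strand. Capitals mark the letters GGGCGG (Sp1) and CCAAT (NF-Y) on either strand; other motifs searched were not in these windows.
NEIL3: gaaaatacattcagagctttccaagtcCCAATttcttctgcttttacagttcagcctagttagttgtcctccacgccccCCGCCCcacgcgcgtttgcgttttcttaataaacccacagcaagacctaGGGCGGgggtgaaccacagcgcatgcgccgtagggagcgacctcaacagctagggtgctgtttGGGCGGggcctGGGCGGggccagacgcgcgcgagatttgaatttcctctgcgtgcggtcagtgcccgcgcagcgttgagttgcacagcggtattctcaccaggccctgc
MPG: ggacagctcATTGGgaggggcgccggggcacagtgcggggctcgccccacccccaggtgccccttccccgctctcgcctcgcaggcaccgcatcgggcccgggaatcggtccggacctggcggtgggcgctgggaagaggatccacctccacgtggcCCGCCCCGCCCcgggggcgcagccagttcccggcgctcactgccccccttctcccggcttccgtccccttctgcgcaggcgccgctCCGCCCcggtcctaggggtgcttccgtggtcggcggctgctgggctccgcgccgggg
MBD4: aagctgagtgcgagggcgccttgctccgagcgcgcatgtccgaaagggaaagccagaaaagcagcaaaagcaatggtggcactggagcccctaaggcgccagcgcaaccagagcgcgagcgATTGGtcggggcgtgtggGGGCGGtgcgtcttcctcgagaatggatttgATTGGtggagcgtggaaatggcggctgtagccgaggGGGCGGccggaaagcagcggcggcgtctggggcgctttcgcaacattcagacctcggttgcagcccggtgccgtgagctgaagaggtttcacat
NTHL1: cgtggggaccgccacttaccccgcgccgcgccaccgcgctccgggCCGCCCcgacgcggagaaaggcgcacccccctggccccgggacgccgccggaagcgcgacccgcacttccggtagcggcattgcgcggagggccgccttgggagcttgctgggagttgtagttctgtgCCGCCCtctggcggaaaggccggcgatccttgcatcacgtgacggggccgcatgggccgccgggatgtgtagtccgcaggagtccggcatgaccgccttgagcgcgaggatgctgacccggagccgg
All 4 windows hold GGGCGG or its reverse complement, and 3 of the 4 hold CCAAT. The GC content of the windows was 58.7% for NEIL3, 77.0% for MPG, 63.0% for MBD4 and 73.3% for NTHL1. Over the windows of all members that rose it was 56.3% to 77.0% and over those that fell 55.0% to 87.0%, so these ranges overlapped. The 56.3% came from a MUTYH window and the 87.0% from an HMGB1 window. Without these windows, an omission made after the values were seen, the ranges were 64.3% to 77.0% and 55.0% to 70.3%. Whether window GC content differed between risers and fallers was not tested.

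NEIL3, a glycosylase for oxidised bases and DNA crosslinks that is made mainly in dividing cells, stood at 15.4, 17.9 and 19.1 CPM in control replicates 1 to 3 and at 10.4, 9.94 and 10.6 CPM with talazoparib. Every talazoparib library lay below every control, and the fall passed the test (-0.76 ± 0.12, adjusted p = 0.000295). Trend-removed it was smaller and still passed (-0.32 ± 0.10, adjusted p = 0.0188). MBD4, which removes thymine mispaired with guanine at methylated sites, went from 18.2, 21.2 and 23.0 CPM to 13.9, 13.7 and 12.8 CPM (-0.62 ± 0.12, adjusted p = 0.000900). Its groups were separate too, but the trend-removed value did not pass (-0.19 ± 0.10). TDG, which acts on the same mispair and on oxidised methylcytosine, had 28.9, 36.1 and 33.0 CPM in controls and 20.8, 17.7 and 28.2 CPM with talazoparib (-0.55 ± 0.16, adjusted p = 0.0102). Here talazoparib replicate 3 lay just under the lowest control, the call was lost without control replicate 2 (-0.51, adjusted p = 0.0567), and the trend-removed difference was near 0 (-0.006 ± 0.082).

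MPG had 51.3, 40.3 and 42.2 CPM in controls and 66.8, 72.7 and 63.7 CPM with talazoparib, with no overlap (0.60 ± 0.10, adjusted p = 0.000372). NTHL1, which removes oxidised pyrimidines, went from 40.3, 33.9 and 35.2 CPM to 54.4, 55.5 and 46.2 CPM, also without overlap (0.51 ± 0.10, adjusted p = 0.00103). Control replicate 1 was the highest control for both genes. SMUG1, a further uracil glycosylase, rose from 43.5, 41.6 and 39.2 CPM to 53.4, 53.2 and 49.7 CPM (0.33 ± 0.08, adjusted p = 0.00493). Trend-removed, none of the 3 passed: MPG stood at 0.008 ± 0.055, NTHL1 at -0.12 ± 0.06 and SMUG1 at 0.08 ± 0.06. The pair that handles 8-oxoguanine rose less, OGG1 by 0.24 ± 0.09 (adjusted p = 0.0347) and MUTYH by 0.39 ± 0.11 (adjusted p = 0.0108). Both calls were lost without control replicate 2 or 3 (OGG1 0.21 and 0.17, MUTYH 0.31 and 0.36) and trend-removed (0.09 and -0.02), and that of OGG1 also without talazoparib replicate 1 or 2. UNG, the most abundant glycosylase, gave 0.07 ± 0.09 (adjusted p = 0.536), with 185 to 222 CPM in controls and 194 to 225 CPM with talazoparib. NEIL2 (-0.09 ± 0.09) and NEIL1 (0.28 ± 0.18, at 2.54 to 3.10 CPM in controls and 3.28 to 3.96 CPM with talazoparib) did not pass either, though NEIL2 was lower trend-removed (-0.40 ± 0.06, adjusted p = 0.000199).

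The 2 AP endonucleases did not pass the test. APEX1, which nicks nearly all abasic sites, had 268, 228 and 248 CPM in controls and 268, 301 and 270 CPM with talazoparib, with control replicate 1 just below the lowest talazoparib library and no overlap (0.17 ± 0.08, adjusted p = 0.0857). The rise passed without that library (0.19, adjusted p = 0.0305). APEX2, whose 3' exonuclease cleans blocked ends, gave 0.18 ± 0.09 (adjusted p = 0.126) with overlapping groups, and passed without talazoparib replicate 3 (0.25, adjusted p = 0.0411). Trend-removed, both were near 0 (-0.05 ± 0.05 and -0.04 ± 0.07).

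Of the 5 end-processing genes, TOP1 and APLF fell, and TDP1, TDP2 and APTX did not pass. Trend-removed, 2 of the 5 were higher and none lower. TOP1, the topoisomerase whose trapped cleavage complexes are a source of single-strand breaks, had 87.9, 111 and 114 CPM in controls and 85.5, 75.6 and 89.1 CPM with talazoparib (-0.32 ± 0.10, adjusted p = 0.0203). Control replicate 1 lay within the talazoparib range, and the call ended when control replicate 2, control replicate 3 or talazoparib replicate 2 was omitted (-0.31, -0.29 and -0.25). Trend-removed, TOP1 was higher (0.16 ± 0.06, adjusted p = 0.0404). TDP1, which removes trapped TOP1 from DNA ends, stood at 59.0, 52.4 and 53.0 CPM in controls and 47.4, 47.0 and 48.3 CPM with talazoparib. Those groups did not overlap, and the test narrowly missed the threshold (-0.20 ± 0.08, adjusted p = 0.0508). With total count scaling TDP1 was called lower (-0.28), as it was with limma on log2(FPKM + 1) (-0.25) and log2(FPKM + 0.1) (-0.27). It was also called lower when any single control was omitted (-0.27 to -0.19), and trend-removed it was 0.15 ± 0.08. TDP2, which frees ends from topoisomerase 2, gave -0.19 ± 0.13 with talazoparib replicate 3 (40.8 CPM) above every control, passed as lower without that library (-0.36), and passed as higher trend-removed (0.25 ± 0.07, adjusted p = 0.0128). APTX, which repairs failed ligations, gave 0.12 ± 0.10 (0.17 ± 0.09 trend-removed). APLF, an ADP-ribose-binding histone chaperone, rested on 20 to 76 counts per library: its fall (-0.91 ± 0.36, adjusted p = 0.0486) was lost trend-removed (-0.29 ± 0.33, adjusted p = 0.513), with DESeq2, total count scaling and limma on either FPKM scale, and without control replicate 2 (-0.52), control replicate 3 (-1.11) or talazoparib replicate 1 (-0.76) or 2 (-0.83).

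In gap filling and ligation, the 2 DNA ligases went opposite ways. LIG3, the partner of XRCC1, had 57.6, 60.0 and 59.5 CPM in controls and 49.4, 50.4 and 47.0 CPM with talazoparib (-0.27 ± 0.08, adjusted p = 0.0107), and no single library changed that call. LIG1, which joins replication fragments and long repair patches, had 46.3, 46.9 and 44.2 CPM in controls and 53.9, 56.0 and 49.5 CPM with talazoparib. Its rise was small and fragile (0.21 ± 0.08, adjusted p = 0.0439): omitting any single library other than talazoparib replicate 3 ended the call (0.15 to 0.21). FEN1, which trims displaced flaps, rose from 223, 208 and 217 CPM to 254, 252 and 234 CPM (0.19 ± 0.07, adjusted p = 0.0359), and the call ended without control replicate 2 or 3 or talazoparib replicate 1 or 2 (0.13 to 0.18). POLL, a gap-filling polymerase, rose by 0.29 ± 0.09 (adjusted p = 0.0117), not past the test without control replicate 2 or 3 (0.21 and 0.26), while POLB, the main gap-filling polymerase, gave -0.16 ± 0.13 (adjusted p = 0.304). Trend-removed, LIG3 was higher (0.16 ± 0.06, adjusted p = 0.0468) and FEN1 lower (-0.12 ± 0.04, adjusted p = 0.0402), both against their first direction; LIG1 (-0.09 ± 0.06), POLL (-0.10 ± 0.06) and POLB (0.01 ± 0.10) did not pass. The exons of LIG3 overlap those of RFFL on the opposite strand over 3754 of 12919 bases in GENCODE release 29, and whether the counting used strand is not stated here.

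The scaffold XRCC1 rose from 44.5, 38.96 and 40.1 CPM to 51.6, 58.0 and 44.8 CPM (0.32 ± 0.10, adjusted p = 0.0186), with talazoparib replicate 3 barely above control replicate 1. The call survived only the omission of control replicate 1 or talazoparib replicate 3 (0.34 and 0.41); with any other library omitted it ended (0.23 to 0.32), and trend-removed XRCC1 was -0.12 ± 0.07. The FPKM of LIG3 over that of XRCC1, a ratio chosen after its values were seen, was 0.270, 0.320 and 0.309 in controls and 0.199, 0.181 and 0.218 with talazoparib. This ratio was not adjusted for the GC and length trend. Trend-removed, the order was the other way, with LIG3 higher (0.16 ± 0.06) and XRCC1 at -0.12 ± 0.07. HMGB1, an abundant DNA-bending protein, had the widest drop in CPM of the 29, from 281, 291 and 291 CPM to 184, 159 and 231 CPM (-0.59 ± 0.11, adjusted p = 0.00115). The talazoparib libraries differed more among themselves than the controls did, yet all lay below them. With a gene length of 7289 nt from the deposited FPKM and a transcript GC content of 37.9%, HMGB1 was higher trend-removed (0.23 ± 0.07, adjusted p = 0.0174). GENCODE names 48 HMGB1 pseudogenes. Reads may be shared with those copies, which would make the HMGB1 count uncertain, and how such reads were counted is not stated here. CHD1L, a remodeller switched on by ADP-ribose, gave -0.04 ± 0.07 with overlapping groups (160 to 176 CPM over the 6 libraries) and 0.20 ± 0.05 trend-removed (adjusted p = 0.00442).

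Ribonuclease H2 cuts DNA at misplaced ribonucleotides, and its subunits changed in different directions. RNASEH2A, the catalytic subunit, rose from 82.9, 66.8 and 73.9 CPM to 97.1, 116 and 101 CPM (0.49 ± 0.10, adjusted p = 0.00111). RNASEH2C, an accessory subunit, rose from 82.2, 68.3 and 71.7 CPM to 89.1, 100.2 and 92.6 CPM (0.34 ± 0.09, adjusted p = 0.00572). RNASEH2B, the other accessory subunit, fell from 23.0, 24.8 and 27.2 CPM to 16.1, 15.7 and 18.8 CPM (-0.57 ± 0.12, adjusted p = 0.00135). None of the 3 overlapped between groups, and none lost its call when any 1 library was left out. Per length, RNASEH2B over RNASEH2A was 0.0714, 0.0955 and 0.0950 in controls and 0.0426, 0.0347 and 0.0480 with talazoparib, a ratio chosen after its values were seen. Trend-removed, RNASEH2A was higher (0.19 ± 0.06, adjusted p = 0.0318), and RNASEH2C (-0.04 ± 0.05) and RNASEH2B (-0.06 ± 0.08) did not pass. Reads of RNASEH2A and RNASEH2C may be shared with neighbours, since 1123 of 3645 exon bases of RNASEH2A overlap THSD8 on the same strand and 1439 of 5101 of RNASEH2C overlap KAT5 on the opposite strand. The same holds on the opposite strand for MPG, with 453 of 1661 exon bases shared with NPRL3, and OGG1, with 2180 of 8733 shared with CAMK1. It also holds there for NTHL1 (402 of 2430, TSC2), NEIL1 (1831 of 6938, MAN2C1), MUTYH (552 of 3909, TOE1) and XRCC1 (537 of 3459, L34079.3). On the same strand, APLF shares 1628 of 7135 with PROKR1, and XRCC1 shares 224 with L34079.1. Further members, such as FEN1 and CHD1L, have smaller overlaps.

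**Figure D3:**
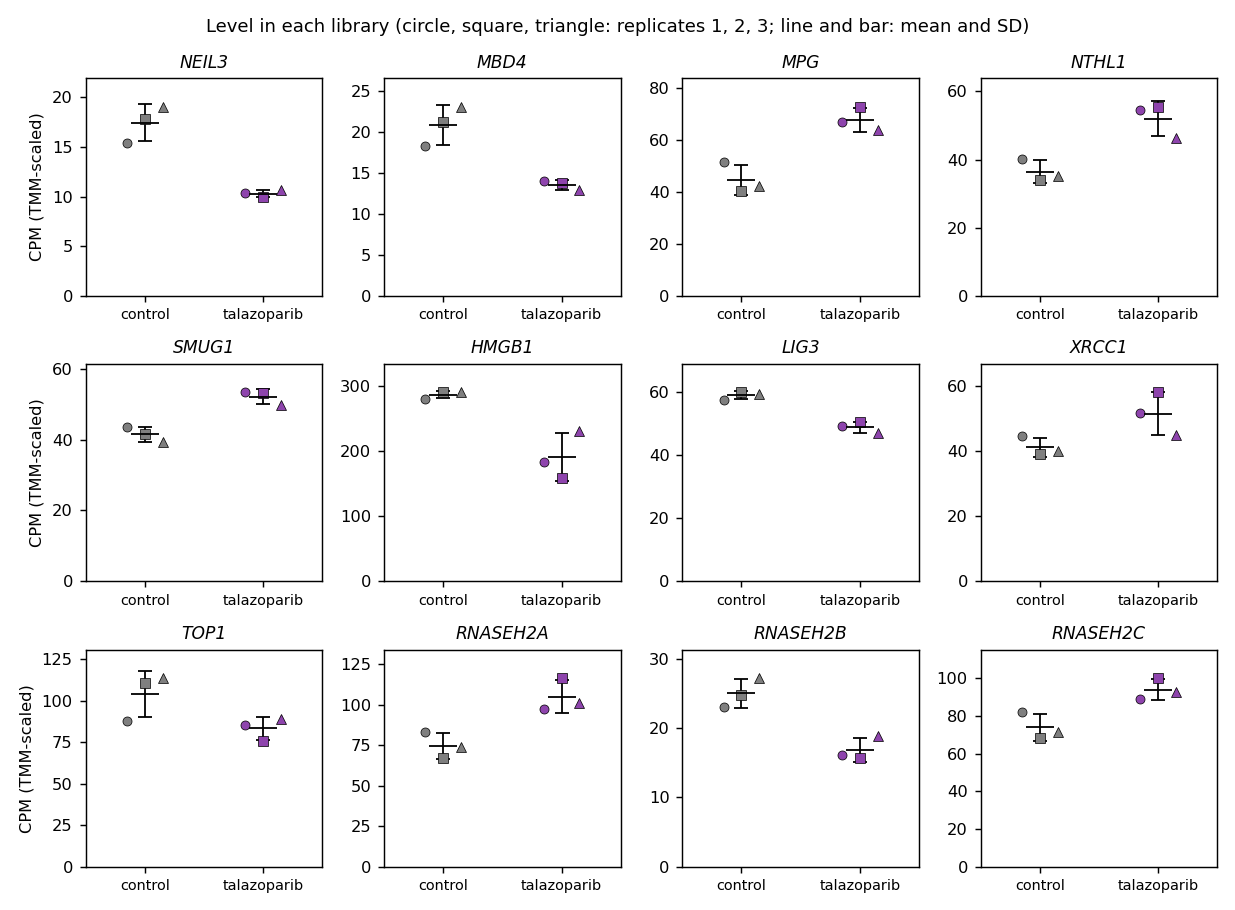
TMM-scaled CPM of 12 repair genes in each library, with circles, squares and triangles for replicates 1, 2 and 3 and a line and bar for the mean and SD of 3. RNASEH2A and RNASEH2C sit higher and RNASEH2B lower in all 3 talazoparib libraries, while in TOP1 control replicate 1 lies among the talazoparib libraries.

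Risers and fallers differed in the base composition of their mRNA. The 11 genes that rose had a transcript GC content of 51.5% to 65.6% and the 8 that fell of 37.7% to 47.7%, so the ranges did not meet. Of the 16 members above 50% GC, 11 rose and none fell. Of the 13 below it, 8 fell and none rose (a boundary chosen after the values were seen). All genes with both properties leaned the same way, so this split is not particular to the repair genes. In their GC deciles 7 to 10 (52.64% to 75.25%), 41.4% to 66.2% rose and 0.875% to 7.88% fell. In deciles 1 to 4 (30.24% to 46.5%), 1.17% to 6.71% rose and 50.04% to 66.9% fell. Deciles 5 and 6 were mixed (12.7% and 25.7% rose, 32.9% and 17.6% fell). Pearson's r between GC content and log2 fold change was 0.89 over the 29 genes and 0.63 over the 13718 genes with both properties, given as a description, since the points share the same 6 libraries. For log2 length r was -0.44 in both sets. In the GC decile of MPG and NTHL1 (62.4% to 75.2%), 66.2% of all genes rose and 0.875% fell; in that of NEIL3 and TDG (38.9% to 41.5%), 2.11% rose and 66.9% fell. Of the 29 repair genes 24 (82.8%) lay within 0.2 log2 units of the median of their GC decile, against 40.7% of all genes. The sets compared were not matched for expression level, which also affects scatter. The repair genes farther off were TDP2 (0.48 above), RNASEH2A (0.43 above), APTX (0.25 above), TOP1 (0.21 above) and NEIL2 (0.32 below). Whether composition contributes to any one gene's change was not tested.

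**Figure D4:**
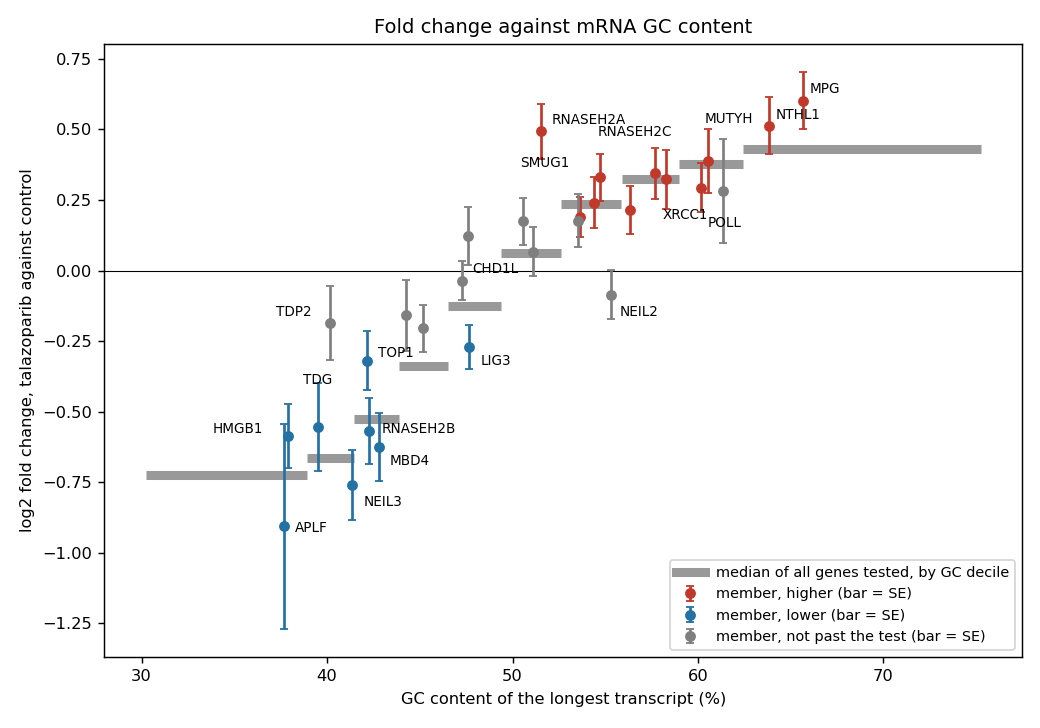
Log2 fold change of the 29 repair genes (circles, bar = SE) against the GC content of their longest protein-coding GENCODE transcript. Red circles are higher, blue lower and grey not past the test. Grey bars give the median of all genes tested in each GC decile. Fallers lie left of 47.7% GC and risers right of 51.5%, and RNASEH2A, TDP2 and NEIL2 lie farthest from the bars.

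Promoter windows were found in RefSeq for 26 members, 38 windows in all. The letters TTTCCCGC, TTTGGCGC, TTTCGCGC or TTTGCCGC, taken as E2F sites on both strands, occurred in 2 of these windows, in LIG1 (114 bases before the start) and UNG (63 bases before it), and in 3.31% of all 35116 windows of 300 bases. CCAAT was in 21 of the 38, against 34.6% of all windows, and GGGCGG in 27 of the 38, against 45.0%. The set of all windows was not limited to genes expressed here and not matched for GC content, so these shares are descriptions only. Among windows of genes that rose, 7 of 13 held CCAAT and 7 of 13 GGGCGG, and among those that fell, 8 of 11 held each. These are counts of windows and not of genes, since some genes have several windows. Overlapping windows can hold the same site, as for a CCAAT of RNASEH2B and a GGGCGG of MUTYH. The cyclic AMP element TGACGTCA was in 1 window, of APTX, and in 1.85% of all windows. These matches describe letters in a window and do not show binding.

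Members known to follow S phase did not share a direction: FEN1, LIG1 and RNASEH2A rose, NEIL3 fell and UNG did not pass. The calls of FEN1 and LIG1 were lost with total count scaling and with the replicate block. Trend-removed, RNASEH2A was higher, FEN1 and NEIL3 were lower, and LIG1 and UNG did not pass. Of 18 other S-phase genes, 7 rose and 6 fell (median log2 fold change 0.07). The share called was 72.2%, against 56.7% of all genes tested. Trend-removed, 5 of the 18 were higher and 4 lower, and that fit called 44.2% of all genes. The transcription factor E2F1 (0.70 ± 0.08) and the licensing factor CDT1 (0.62 ± 0.09) rose, and the ribonucleotide reductase subunit RRM1 (-0.69 ± 0.08) and the helicase subunit MCM6 (-0.56 ± 0.07) fell. Trend-removed, E2F1 (0.24), CDT1 (0.14) and RRM1 (-0.26) passed in the same direction and MCM6 (-0.14) did not pass.

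In 36 further genes of the pathway, 12 were higher and 14 lower (median -0.03), and trend-removed 5 were higher and 11 lower. The share called was 72.2%, against 56.7% of all genes tested, and the trend-removed fit called 44.2% of all genes. PCNA, the sliding clamp of long-patch repair, fell by 0.26 on the log2 scale (adjusted p = 0.0251), a call lost without control replicate 1 or 3 or talazoparib replicate 1 or 2 (-0.29 to -0.18). Trend-removed, PCNA was lower (-0.16 ± 0.06, adjusted p = 0.0490). POLE2, a subunit of polymerase epsilon, had 45.9, 55.8 and 56.2 CPM in controls and 26.1, 23.6 and 27.7 CPM with talazoparib (-1.03 ± 0.11; -0.75 ± 0.07 trend-removed). The nuclease and helicase DNA2 (-1.41 ± 0.20), the clamp loader subunits RFC1 (-0.66 ± 0.10) and RFC4 (-0.63 ± 0.09) and the ADP-ribose hydrolase PARG (-0.84 ± 0.13) were also lower, and the polymerase delta subunits POLD4 (0.85 ± 0.10) and POLD1 (0.53 ± 0.08) higher; trend-removed, DNA2 (-0.74), RFC4 (-0.55), PARG (-0.37) and POLD4 (0.40) still passed, and RFC1 (-0.09) and POLD1 (0.11) did not. Of the drug's targets, PARP1 gave -0.07 ± 0.07 (-0.07 trend-removed) and was called lower with total count scaling (-0.14, adjusted p = 0.0305) and with limma on log2(FPKM + 1) (-0.14, adjusted p = 0.0363) and log2(FPKM + 0.1) (-0.14, adjusted p = 0.0366). PARP2 gave -0.26 ± 0.09, a call lost in the trend-removed fit (-0.07) and when talazoparib replicate 1 or 3 was omitted (-0.25 and -0.22).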

How the data were processed

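RNA of 6 DU 145 libraries was measured, 3 per group. Libraries came from TRIzol-extracted total RNA and a VAHTS Universal V6 kit, per the labels' protocols. HTSeq, HISAT2, Trimmomatic, Cufflinks and build GRCh38 are named, per the submitters' processing notes; versions, annotation and use of strand: not given in the sources used here. A deposited count table has whole-number counts for each gene symbol. The authors' deposited FPKM values equal count divided by gene length and column total, with implied lengths whole within 0.01 nt for 99.95% of 21065 genes, so they were used for levels per length, gene lengths and the limma alternatives.

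Counts were tested with edgeR 4.0.16 (R 4.3.3): filterByExpr with a minimum count of 10, TMM scaling, quasi-likelihood test with robust dispersion, Benjamini-Hochberg adjustment over all 14452 genes tested and a threshold of 0.05. SE is the absolute log2 fold change over the square root of F. Trend-removed values used natural splines with 5 degrees of freedom each over GC content and log2 length. These were fitted to each library's log2 CPM deviation (prior count 2) and used as offset. GC content came from the longest transcript in GENCODE release 29, a protein-coding one where the gene had it. Length came from the deposited FPKM values. All 29 members had both properties. RefSeq promoter windows (GRCh38.p14) were searched for motifs on both strands. The test and the offset were checked on simulated data. For genes without counts, 3 counts was taken as the limit that a count of 0 allows.

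Alternatives were RLE and total count scaling, DESeq2 1.42.0, no low-count filter, limma 3.58.1 on log2(FPKM + 1) and log2(FPKM + 0.1), leaving out each library, and the replicate number as a block, alone and with the offset. All members are reported; of the other lists, PARP1, PARP2, PCNA, PARG and the genes with the smallest adjusted p (up to 6 further pathway genes, up to 4 S-phase genes) are named. Some genes of these and the marker lists are not reported here by name. Promoters are shown for the 4 members with the smallest adjusted p whose window held a motif. Members and lists were chosen with earlier results of these data known.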

Additional observations from a re-analysis of the deposited data

How the results depend on the processing

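Of the 19 repair genes past the test, 10 kept their call under every alternative other than the GC and length offset, alone or with the block: HMGB1, LIG3, MBD4, MPG, NEIL3, NTHL1, RNASEH2A, RNASEH2B, RNASEH2C and SMUG1. Leaving out 1 library at a time gave 11 to 21 calls among the 29 members (5 to 12 higher, 6 to 9 lower) and a median of 0.027 to 0.173; over all genes it gave 6353 to 8549 calls (2622 to 3973 higher, 3731 to 4576 lower). The lowest counts were without control replicate 2 (11) or 3 (12). The median log2 fold change of the members was 0.047 under total count scaling, 0.041 on log2(FPKM + 1) and 0.043 on log2(FPKM + 0.1), with 8 higher and 8 lower in each.

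With the GC and length offset the members' median was -0.041, with 9 calls (6 higher, 3 lower); with the offset and the replicate block it was -0.040, with 5 calls (3 higher, 2 lower), and 5139 calls over all genes (2566 higher, 2573 lower). Log2 fold changes that changed sign with the offset, with the value under offset and block in brackets where it differs, were UNG -0.11, MUTYH -0.015, NTHL1 -0.12, NEIL1 -0.073 (-0.069), APEX1 -0.052, APEX2 -0.042 (-0.043), TDP1 0.15 (0.16), TDP2 0.25, TOP1 0.16 (0.17), POLB 0.014 (0.007), POLL -0.097, FEN1 -0.12, LIG1 -0.094 (-0.093), LIG3 0.16, XRCC1 -0.12 (-0.13), CHD1L 0.20, HMGB1 0.23, RNASEH2C -0.041 (-0.040). UNG also changed sign under total count scaling (-0.007), on log2(FPKM + 1) and log2(FPKM + 0.1) (-0.006 each) and without control replicate 2, its values with 1 library left out ranging from -0.029 to 0.13. With offset and block together, 4 of the 9 trend-removed calls among the members were lost: RNASEH2A (adjusted p = 0.0790), TOP1 (0.0806), LIG3 (0.105) and FEN1 (0.107). Of the other named genes, PCNA (0.0773) and CDT1 (0.0789) lost theirs. The cause was not tested.

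Same-numbered libraries did not deviate together (correlations over genes of -0.09, -0.17 and 0.004 for numbers 1, 2 and 3), so the number was not taken as a pairing. With the replicate block alone, 15 members passed (8 higher, 7 lower; median 0.12), and 7580 of all genes; APLF, FEN1, LIG1 and OGG1 were the members no longer past the test. At these depths APLF had 20 to 76 counts per library and NEIL1 100 to 149. How far the number of counts or the spread between 3 libraries limited each gene's test was not examined.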
